A study of Mus musculus with 8 samples.

Results

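The genes described here encode collagens, laminins, nidogens and the proteins that bind, link or organise them in the extracellular matrix. They were taken from a list of 43 symbols, matched to array probes whose annotation gives a single gene symbol. Of the 43, 41 were measured, out of 19938 genes on the array with such a probe, and each of the 41 had 1 probe. Fbn1 (fibrillin 1) was not analysed here, and Loxl2 shared its probe with another gene symbol and was left out. The samples were 4 hepatocellular carcinomas, each from a different mouse (M24, M48, M50 and M60), and non-tumor liver taken beside each of them. The animals were male C57BL/6J mice that received an adeno-associated virus (AAV) vector when they were 2 to 3 months old, and both tissues were frozen 18 months later. The labels give neither the cargo nor the dose of the vector, and both tissues come from a liver that received it, so no vector-free liver enters the comparison.

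The liver lobule is unusual among epithelial organs, because its sinusoids have no continuous basement membrane. Hepatocytes face a loose matrix in the space of Disse, and dense fibrillar matrix is normally limited to portal tracts, large vessels and the capsule. Fibrillar collagens form the cables that stiffen scar and tumor stroma, whereas a basement membrane is a sheet in which a laminin network and a collagen IV network are joined by nidogen and perlecan. In liver, activated stellate cells are the best known makers of fibrillar collagen, and vessels and bile ducts carry basement membranes.

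All values are log2 expression values as deposited, and differences are tumor minus adjacent liver of the same mouse, with the standard error (SE) of a limma fit over 4 pairs. The words rose and fell are kept for genes with an adjusted p under 0.05 (Benjamini-Hochberg over 11963 tested genes). The 40% of genes with the lowest mean, below a log2 value of 4.60, were not tested. This left out Lama3 and Lox among the members, so 39 were tested. Lists of 4 values run in the order M24, M48, M50 and M60. Probes of different genes differ in brightness, so levels are compared only within a gene. In whole tissue, more cells that make a transcript cannot be told apart from more transcript per cell.

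Matrix genes were higher in the tumors in 36 of 41 measured members, by the mean difference. Of the 39 tested members 19 rose and 2 fell, while 18 did not pass the test. Over all tested genes 16.3% were called higher and 15.7% lower, 31.9% in all. The median difference was 0.46 over the tested members and 8e-04 over all tested genes. Among the 41 measured members 20 had all 4 tumors above all 4 adjacent samples and 1 had all tumors below, where 10.2% and 10.4% of all measured genes did so (14.9% and 15.6% of tested genes). Without M60, 13 members were called higher and 1 lower, and without M50 the counts were 15 and 0.

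Upstream sequence is shown for 3 members that rose, Nid1 with the largest difference and the fibrillar collagens Col3a1 and Col1a2. Each is the 250 bases before the annotated transcript start from RefSeq, build GRCm38.p6, all on the + strand. The regions are chr13:13437352-13437601 for Nid1, chr1:45311288-45311537 for Col3a1 and chr6:4505368-4505617 for Col1a2. Both strands were searched for 3 motifs, and capitals mark the matches, which do not overlap here. The TATA box was written as TATAAA. The GC box was written as GGGCGG. The third motif was CCAAT, shown by its reverse complement ATTGG where it lies on the opposite strand, as in Nid1.
Nid1: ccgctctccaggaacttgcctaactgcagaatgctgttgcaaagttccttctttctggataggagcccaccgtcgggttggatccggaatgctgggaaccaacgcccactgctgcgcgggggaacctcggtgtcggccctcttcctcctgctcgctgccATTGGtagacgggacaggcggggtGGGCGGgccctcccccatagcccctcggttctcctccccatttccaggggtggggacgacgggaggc
Col3a1: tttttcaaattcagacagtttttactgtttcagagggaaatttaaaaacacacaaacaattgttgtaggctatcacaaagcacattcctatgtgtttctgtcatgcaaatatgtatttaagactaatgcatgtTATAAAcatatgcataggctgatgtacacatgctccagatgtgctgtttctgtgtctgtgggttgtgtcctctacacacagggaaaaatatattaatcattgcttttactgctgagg
Col1a2: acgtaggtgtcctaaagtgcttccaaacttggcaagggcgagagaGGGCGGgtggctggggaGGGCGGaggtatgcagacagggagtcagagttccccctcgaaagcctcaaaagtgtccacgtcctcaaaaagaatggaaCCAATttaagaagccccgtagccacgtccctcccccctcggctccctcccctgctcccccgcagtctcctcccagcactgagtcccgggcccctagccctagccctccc
The Nid1 and Col1a2 windows hold CCAAT and GGGCGG matches and no TATAAA, whereas the only match in the Col3a1 window is TATAAA, which begins 117 bases before the start. Base composition differed as well, with 64.4% G and C in the Nid1 window, 62.0% in that of Col1a2 and 35.2% in that of Col3a1. Of the 43 members 28 had an upstream window in the table. CCAAT was present in 8 of these 28 (28.6%) against 37.5% of 27025 genes in the table, TATAAA in 4 (14.3%) against 14.3%, and GGGCGG in 17 (60.7%) against 35.4%. The median G and C content was 59.5% for the members and 52.4% for all genes, and its part in the GGGCGG share was not tested. None of the 14 basement membrane genes with a window held TATAAA in it, against 14.3% of all genes. A set of 14 is too small to tell this apart from that share, and it was not tested. A match is a run of letters, not evidence of a bound factor.

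Of the 5 fibrillar collagens 4 rose (80%, against 16.3% of all tested genes), and Col5a1 did not pass. Col3a1, the collagen III chain of reticular fibres, had 8.80, 8.84, 9.64 and 8.78 in tumors, against 7.05, 7.37, 7.27 and 6.60 in adjacent liver. Every tumor lay above every adjacent sample, and the M50 tumor stood apart from the other 3. The difference was 1.94 (SE 0.16, adjusted p = 0.000512), which is 3.84-fold. Col1a1, the α1 chain of collagen I, had 8.70, 8.41, 9.86 and 8.84 in tumors, against 7.12, 7.39, 7.05 and 6.58 in adjacent liver. Again the groups did not overlap and M50 had the highest tumor, with a difference of 1.92 (SE 0.27, adjusted p = 0.00333). Its partner chain Col1a2 had 8.35, 8.26, 9.35 and 8.32 in tumors, against 7.02, 7.57, 7.28 and 6.45 in adjacent liver. It rose by 1.49 (SE 0.22, adjusted p = 0.00393), from differences that were smallest in M48 at 0.68 and largest in M50 at 2.07.

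Collagen V is the minor collagen on which collagen I fibrils are started, and 1 of its 2 chains on the list rose. Col5a2 had 5.78, 6.14, 6.16 and 5.58 in tumors, against 5.13, 5.58, 4.98 and 5.08 in adjacent liver. It rose by 0.72 (SE 0.13, adjusted p = 0.00820), and its lowest tumor, M60, was level with its highest adjacent sample, M48, to 2 decimals. Col5a1 had 6.05, 5.99, 6.33 and 5.94 in tumors, against 5.84, 6.06, 5.87 and 5.77 in adjacent liver, so the groups overlapped, and its difference of 0.19 (SE 0.11, adjusted p = 0.240) did not pass.

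**Figure D1:**
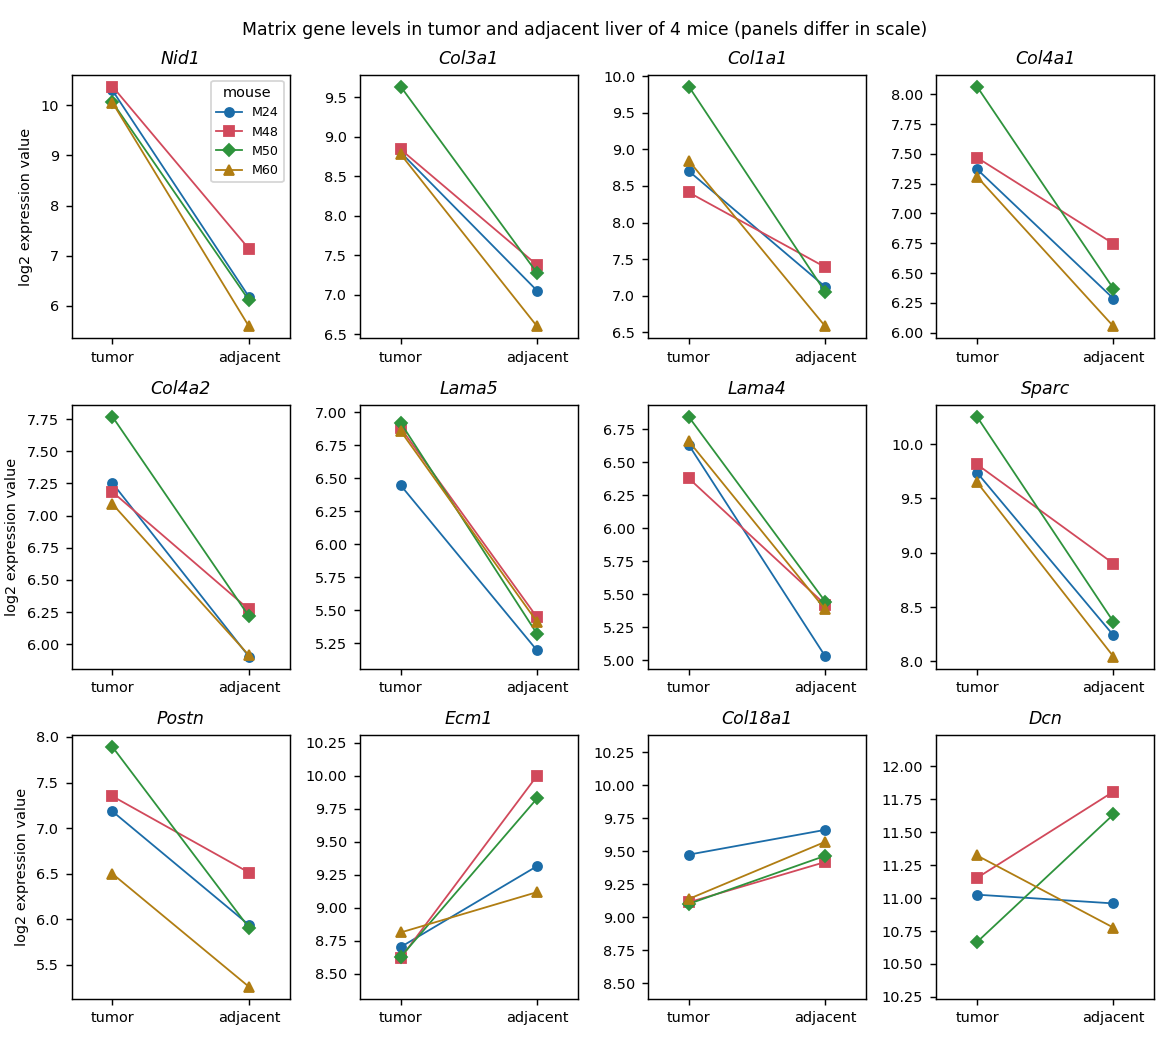
Log2 expression of 12 matrix genes in tumor and adjacent liver, with a line joining both tissues of each of 4 mice (y axes differ in scale). Read from the axes, Nid1 has the largest differences. The lines of Ecm1 and Col18a1 run upward from tumor to adjacent liver, and the lines of Dcn cross.

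Of the 4 collagens that decorate or link fibrils 1 rose (25%, against 16.3% of all tested genes). Col6a3, the large chain of the beaded microfibrils of collagen VI, had 7.30, 6.90, 7.34 and 7.64 in tumors, against 6.56, 6.78, 6.55 and 5.81 in adjacent liver. The groups did not overlap, but the difference was only 0.13 in M48 and as much as 1.83 in M60. It rose by 0.87 (SE 0.25, adjusted p = 0.0387). It no longer passed when M24 (adjusted p = 0.101), M50 (0.104) or M60 (0.0678) was left out, and without M60 the difference was 0.55. The other collagen VI chains stood at 0.20 for Col6a1 (adjusted p = 0.181) and 0.25 for Col6a2 (adjusted p = 0.128), and their groups overlapped. Col14a1, a fibril-associated collagen, had 9.20, 9.50, 9.62 and 9.61 in tumors, against 9.01, 9.72, 9.01 and 8.46 in adjacent liver. Its adjacent samples spanned more than its tumors, and the difference of 0.43 did not pass (adjusted p = 0.167) except without M48, where it was 0.65 (adjusted p = 0.0447).

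Nid1 changed most of all members. It encodes nidogen 1, the rod-shaped glycoprotein that bridges the laminin and collagen IV networks. It had 10.29, 10.37, 10.06 and 10.05 in tumors, against 6.18, 7.14, 6.11 and 5.59 in adjacent liver. The 4 tumors lay within a narrow range (SD 0.16) and the adjacent samples were more spread (SD 0.64). The difference of 3.94 (SE 0.19, adjusted p = 0.000136) is 15.3-fold, and by mouse it was 4.11, 3.23, 3.94 and 4.46. Its paralogue Nid2 had 6.12, 6.24, 6.61 and 6.09 in tumors, against 5.65, 5.93, 5.74 and 6.06 in adjacent liver. These groups just failed to overlap, and the difference of 0.42 (SE 0.15, adjusted p = 0.0691) did not pass.

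Of the 2 basement membrane proteoglycans 1 rose. Hspg2 encodes perlecan, which carries heparan sulfate chains and binds nidogen. It had 7.17, 7.03, 7.46 and 7.25 in tumors, against 6.71, 6.80, 6.92 and 6.61 in adjacent liver, with no overlap. It rose by 0.46 (SE 0.0999, adjusted p = 0.0142), and it no longer passed when M24 (adjusted p = 0.0530), M50 (0.0574) or M60 (0.0680) was left out. Agrn, the gene of the related proteoglycan agrin, had 6.75, 6.49, 6.44 and 6.68 in tumors, against 6.39, 6.43, 6.47 and 6.39 in adjacent liver, and its difference of 0.17 did not pass (adjusted p = 0.262).

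Among collagen IV genes the widely expressed pair of chains rose together. Col4a1 had 7.37, 7.47, 8.07 and 7.31 in tumors, against 6.28, 6.75, 6.37 and 6.05 in adjacent liver, a difference of 1.19 (SE 0.16, adjusted p = 0.00269). Col4a2 had 7.25, 7.18, 7.77 and 7.09 in tumors, against 5.90, 6.27, 6.22 and 5.91 in adjacent liver, a difference of 1.25 (SE 0.12, adjusted p = 0.00101). In both genes M50 had the highest tumor and the largest difference and M48 the smallest difference. The 2 genes lie head to head on opposite strands of chromosome 8, and their annotated starts in the upstream table were 21 bases apart. Col4a3, a chain known from kidney and lung basement membranes, had 5.84, 5.11, 5.89 and 5.64 in tumors, against 5.11, 5.15, 5.25 and 4.90 in adjacent liver. The difference was -0.04 in M48, and the gene rose by 0.52 in the mean (SE 0.15, adjusted p = 0.0397). It no longer passed when M24 (adjusted p = 0.139), M50 (0.131) or M60 (0.138) was left out, or when genes with low values were kept in (0.0504). Its neighbour Col4a4 stood at 0.12 (adjusted p = 0.411) and Col4a5 at 0.31 (adjusted p = 0.183), with an adjacent mean of 4.47 that lay below the filter value.

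The collagens XV and XVIII, whose C-terminal fragments are known as inhibitors of vessel growth, went in opposite directions. Col15a1 had 6.48, 6.41, 6.53 and 6.38 in tumors, against 5.83, 5.55, 5.45 and 5.93 in adjacent liver. It rose by 0.76 (SE 0.12, adjusted p = 0.00530) without overlap. Col18a1, the precursor of endostatin, which hepatocytes are known to make, had 9.47, 9.11, 9.10 and 9.14 in tumors, against 9.66, 9.42, 9.47 and 9.57 in adjacent liver. It was lower in the tumor of every mouse and fell by 0.32 (SE 0.0804, adjusted p = 0.0238), and the M24 tumor overlapped the adjacent range. The call was lost without M50 (adjusted p = 0.0749) and without M60 (0.117).

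Laminins are trimers of an α, a β and a γ chain, and 4 of 7 tested chains rose (57.1%, against 16.3% of all tested genes). Lama5, the α chain of most adult epithelial and vascular laminins, had 6.45, 6.88, 6.92 and 6.86 in tumors, against 5.19, 5.44, 5.32 and 5.41 in adjacent liver. It rose by 1.43 (SE 0.0971, adjusted p = 0.000330), by nearly equal amounts in the 4 mice (1.25, 1.44, 1.60 and 1.45). Lama4, the α chain of endothelial and mesenchymal laminins, had 6.63, 6.38, 6.84 and 6.66 in tumors, against 5.03, 5.42, 5.44 and 5.38 in adjacent liver. It rose by 1.31 (SE 0.12, adjusted p = 0.000903), and in neither α chain did the groups overlap. Lama2, the α chain best known from muscle, was also above adjacent liver in every tumor, with 5.39, 5.37, 5.48 and 5.78 in tumors, against 4.88, 5.28, 5.10 and 4.66 in adjacent liver. Its difference of 0.53 (SE 0.17) missed the threshold (adjusted p = 0.0538), and it passed with no replicate block (0.0274) and without M48 (0.0317). Lama3, the α chain of epithelial anchoring laminins, was not tested and had means of 4.20 in tumors and 4.31 in adjacent liver.

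Of the β and γ chains, Lamc1 and Lamb2 rose. Lamc1, the γ chain to which nidogen binds, had 7.47, 7.75, 7.65 and 7.37 in tumors, against 6.46, 7.19, 6.88 and 6.83 in adjacent liver, a difference of 0.72 (SE 0.11, adjusted p = 0.00407). Lamb2, a β chain of mature vascular and neuromuscular basement membranes, had 6.69, 6.39, 6.27 and 6.59 in tumors, against 5.76, 6.13, 5.77 and 5.72 in adjacent liver. It rose by 0.64 (SE 0.14, adjusted p = 0.0136), a call lost without M24 (adjusted p = 0.0567) and without M60 (0.0579). Lamb1, the other widely expressed β chain, had 6.84, 6.83, 6.98 and 6.88 in tumors, against 6.62, 7.30, 6.78 and 6.29 in adjacent liver. The highest and the lowest of the 8 samples were both adjacent liver, and the difference of 0.14 (SE 0.17) did not pass (adjusted p = 0.580). Lamb3, a partner of Lama3, stood at 0.05 (adjusted p = 0.732), with 5.14 to 5.25 in tumors and 5.10 to 5.25 in adjacent liver.

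**Figure D2:**
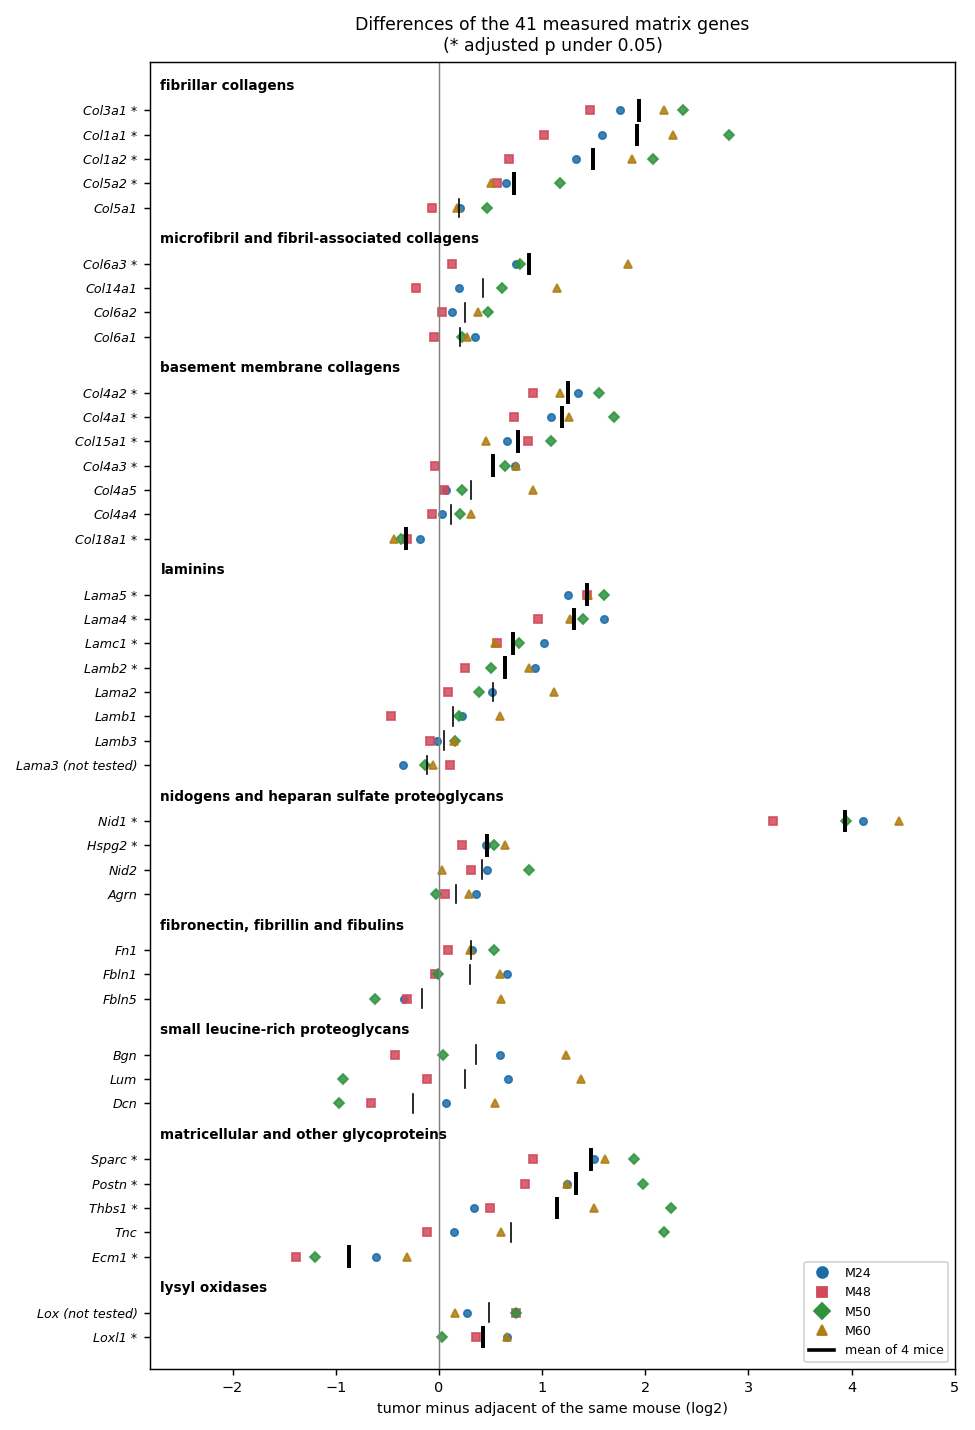
Tumor minus adjacent difference (log2) of the 41 measured matrix genes, by role, with a symbol for each mouse and a bar for the mean (thick and starred where the adjusted p was under 0.05). Nid1 lies far to the right at 3.94, and the small leucine-rich proteoglycans spread to both sides of 0.

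Fibrillar collagens were set against basement membrane genes within each mouse, as a description with no test. The mean difference over 5 fibrillar collagens was 1.10, 0.73, 1.78 and 1.40, against 0.75, 0.46, 0.80 and 0.83 over 19 basement membrane genes. The fibrillar mean was larger in each of the 4 mice, by 0.54 ± 0.32 (SD, n = 4). Nid1 alone carried part of the basement membrane mean. Without it the basement membrane values were 0.57, 0.31, 0.63 and 0.63, and the gap was 0.72 ± 0.32. With medians over genes in place of means the gap was 1.01 ± 0.47. The gap was widest in M50 (0.97) and narrowest in M48 (0.27). In counts, 4 of 5 fibrillar collagens (80%) and 10 of 18 tested basement membrane genes (55.6%) rose, and 0 and 1 fell. The shares over all tested genes were 16.3% higher and 15.7% lower. Lama3 (means 4.20 in tumors, 4.31 in adjacent liver) and Col4a5 (adjacent mean 4.47) count in the basement membrane mean. These values lay below the filter value of 4.60, and no fibrillar collagen mean did. How far such low values narrow the basement membrane differences was not tested. Within that set Nid1, Col4a1, Col4a2, Lama4 and Lama5 rose by 1.19 to 3.94.

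**Figure D3:**
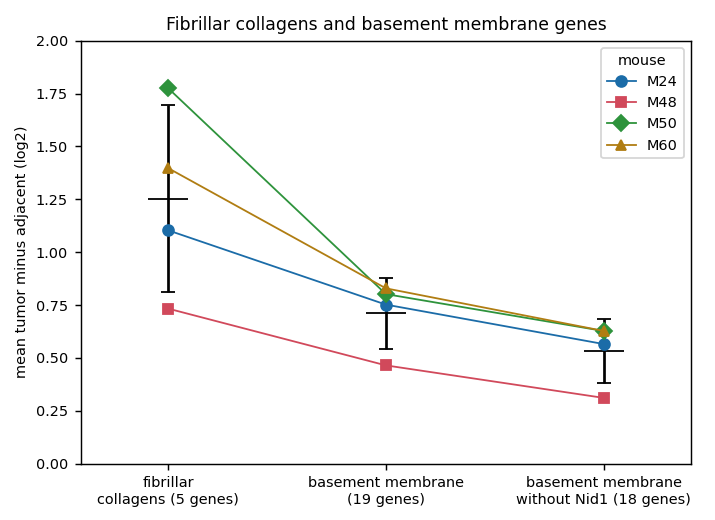
Mean tumor minus adjacent difference (log2) over fibrillar collagens, over basement membrane genes and over basement membrane genes without Nid1, with a line for each mouse and black bars for mean ± SD (n = 4). Each line falls from left to right, most steeply in M50.

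The small leucine-rich proteoglycans, which bind collagen fibrils and set their width, differed in sign between mice. Dcn (decorin) had 11.03, 11.15, 10.67 and 11.32 in tumors, against 10.96, 11.81, 11.63 and 10.78 in adjacent liver. Lum (lumican) had 7.09, 7.18, 6.29 and 7.28 in tumors, against 6.42, 7.30, 7.22 and 5.91 in adjacent liver. Both were higher in the tumors of M24 and M60 and lower in those of M48 and M50. Bgn (biglycan) had 9.97, 9.89, 9.76 and 10.20 in tumors, against 9.38, 10.31, 9.73 and 8.96 in adjacent liver, and was lower in the tumor of M48 only. Mean differences were -0.25 for Dcn (adjusted p = 0.472), 0.25 for Lum (adjusted p = 0.624) and 0.36 for Bgn (adjusted p = 0.322). By limma 0 of the 3 passed, and 0 had an unadjusted p under 0.05.

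Glycoproteins of the elastic and provisional matrix did not pass either. Fn1, fibronectin, which hepatocytes secrete into plasma, had 12.73, 12.72, 12.58 and 12.73 in tumors, against 12.41, 12.62, 12.04 and 12.43 in adjacent liver. It was higher in the tumor of every mouse, yet the M50 tumor lay below the M48 adjacent sample. Its difference of 0.31 (SE 0.0994) missed the threshold (adjusted p = 0.0537), and it passed after quantile normalization (0.0442) and without M48 (0.0441). Fbln1 stood at 0.30 (adjusted p = 0.182) and Fbln5, a fibulin needed for elastic fibres, at -0.16 (adjusted p = 0.570), with overlapping groups in both. Of these 3 tested genes 1 had an unadjusted p under 0.05.

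Matricellular proteins, which tune how cells meet the matrix, included large rises. Sparc, a collagen-binding glycoprotein, had 9.74, 9.81, 10.25 and 9.65 in tumors, against 8.24, 8.90, 8.36 and 8.04 in adjacent liver. It rose by 1.48 (SE 0.16, adjusted p = 0.00122) without overlap. Postn (periostin), which is made by activated fibroblasts, had 7.18, 7.35, 7.89 and 6.50 in tumors, against 5.94, 6.51, 5.91 and 5.26 in adjacent liver. It rose by 1.33 (SE 0.18, adjusted p = 0.00289), and the M60 tumor was at the level of the M48 adjacent sample.

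Both other matricellular genes with higher means in tumors had their largest difference in M50. Thbs1, thrombospondin 1, which can activate latent TGF-β, had 6.17, 6.55, 7.59 and 6.59 in tumors, against 5.83, 6.05, 5.34 and 5.09 in adjacent liver. It rose by 1.15 (SE 0.31, adjusted p = 0.0322), but without M50 the difference was 0.78 (adjusted p = 0.0764) and without M60 it was 1.03 (adjusted p = 0.108). Tnc, tenascin C of wound and tumor stroma, had 4.63, 4.57, 6.26 and 4.79 in tumors, against 4.48, 4.68, 4.08 and 4.20 in adjacent liver. The M50 tumor alone was clearly raised, and the mean difference of 0.70 (SE 0.36) did not pass (adjusted p = 0.181). The adjacent mean of 4.36 lay below the filter value, so the size of the M50 difference is uncertain.

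Ecm1 was the member with the largest fall. It encodes extracellular matrix protein 1, a secreted glycoprotein known in mouse liver for keeping latent TGF-β inactive. It had 8.70, 8.62, 8.63 and 8.81 in tumors, against 9.32, 10.001, 9.83 and 9.12 in adjacent liver. All tumors lay below all adjacent samples, and the tumors were much closer to each other (SD 0.0897) than the adjacent samples (SD 0.42). The difference was -0.88 (SE 0.18, adjusted p = 0.0129), and without M50 it was -0.77 (adjusted p = 0.0559).

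Lysyl oxidases cross-link collagen and elastin. Loxl1 had 5.77, 5.36, 5.20 and 5.56 in tumors, against 5.12, 5.002, 5.17 and 4.90 in adjacent liver. It rose by 0.43 (SE 0.13, adjusted p = 0.0482), and this call was lost under more settings than that of any other member. It was lost without M24 (adjusted p = 0.162), without M48 (0.0900) and without M60 (0.166), and after subtracting each array's median (0.0711), after quantile normalization (0.0781), with no filter on low genes (0.0628) and with 20% of genes left out (0.0578). Lox had 3.73, 4.22, 4.23 and 3.74 in tumors, against 3.46, 3.47, 3.48 and 3.58 in adjacent liver. The tumors were all higher, but the gene lay below the filter value in both groups and was not tested.

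Neighbouring genes were compared where 2 members follow each other among protein-coding genes of the reference, which gave 5 pairs. Col4a1 and Col4a2 differed by nearly the same amount (1.19 and 1.25), as did Col6a2 and Col6a1 (0.25 and 0.20). Col3a1 and Col5a2, neighbours on chromosome 1, both rose, but by 1.94 and 0.72. Col4a4 and Col4a3 had differences of 0.12 and 0.52, and Dcn and Lum had -0.25 and 0.25.

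The mice ranked alike across many members. M48 had the smallest difference in 27 of 41 measured members (65.9%), where M48 was smallest in 25.1% of all tested genes. M50 had the largest difference in 17 (41.5%, against 25.5% of all tested genes) and M60 in 14. The adjacent liver of M48 had the highest of the 4 adjacent values in 27 members (65.9%, against 31.6%), and that of M60 had the lowest in 27 (65.9%, against 19.8%). Among tumors, M50 was highest in 23 (56.1%, against 27.1%). The members share arrays, so these counts describe 8 samples and are no test.

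Receptors for these matrix proteins were read from a separate list. Of 23 tested genes 9 rose (39.1%) and 0 fell by limma, where 16.3% of all tested genes were called higher and 15.7% lower. At an unadjusted p under 0.05 the receptor counts were 11 and 3. The co-receptor gene Sdc2 was called lower with no replicate block and without M48, and the laminin receptor gene Dag1 after subtracting each array's median. Itga7, the gene of another laminin-binding integrin, was lower in the tumor of every mouse and stood at -0.36 (adjusted p = 0.106). Itga6, the α6 integrin that binds laminin, had 7.61, 8.11, 8.74 and 7.73 in tumors, against 4.66, 5.40, 5.05 and 5.06 in adjacent liver. It rose by 3.00 (SE 0.18, adjusted p = 0.000232). The laminin-binding α3 integrin gene Itga3 had 8.09, 8.19, 7.55 and 7.68 in tumors, against 5.83, 5.88, 6.06 and 6.22 in adjacent liver, and it rose by 1.88 (SE 0.18, adjusted p = 0.000875). In both genes every tumor lay more than 1 log2 unit above every adjacent sample.

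Of the tested collagen receptors Itga2 and Ddr1 rose, while Itga1 (0.29, adjusted p = 0.0923) and Ddr2 did not pass. Itga2, the α2 integrin, had 6.33, 7.21, 7.33 and 6.77 in tumors, against 4.34, 4.43, 4.63 and 3.84 in adjacent liver. Its difference was 2.60 (SE 0.16, adjusted p = 0.000271), of uncertain size because the adjacent mean of 4.31 lay below the filter value. Itga2 was tested, and counts among the 9 receptors that rose, only through its tumor values. Ddr1, a receptor kinase activated by collagen, had 6.75, 7.21, 6.86 and 6.72 in tumors, against 5.28, 5.40, 5.15 and 5.01 in adjacent liver. It rose by 1.68 (SE 0.0978, adjusted p = 0.000232), whereas Ddr2, the discoidin receptor of mesenchymal cells, stood at -0.31 (adjusted p = 0.225). The β1 subunit that pairs with α2, α3 and α6 (Itgb1) rose by 0.32 (adjusted p = 0.0269), and the β4 subunit of hemidesmosomes (Itgb4) stood at 0.07 (adjusted p = 0.641).

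Among 19 tested genes of collagen processing 7 rose (36.8%) and 1 fell, where 16.3% of all tested genes were called higher and 15.7% lower. The 7 include Adamts14, at 0.96 (adjusted p = 0.00769). Its adjacent mean of 4.50 lay below the filter value, so it was tested only through its tumor values and its size is uncertain. Crtap, part of the complex that hydroxylates proline in collagen, rose by 0.87 (SE 0.0897, adjusted p = 0.00116), Pcolce, an enhancer of procollagen cleavage, by 0.68 (SE 0.0933, adjusted p = 0.00298), and Pxdn, which cross-links collagen IV, by 0.67 (SE 0.11, adjusted p = 0.00548). P4ha2, a catalytic subunit of prolyl 4-hydroxylase, fell by 0.95 (SE 0.13, adjusted p = 0.00264). It had 5.01, 5.44, 5.22 and 4.96 in tumors, against 5.61, 6.32, 6.26 and 6.22 in adjacent liver. The sister subunit gene P4ha1 rose by 0.36 (adjusted p = 0.0367).

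**Figure D4:**
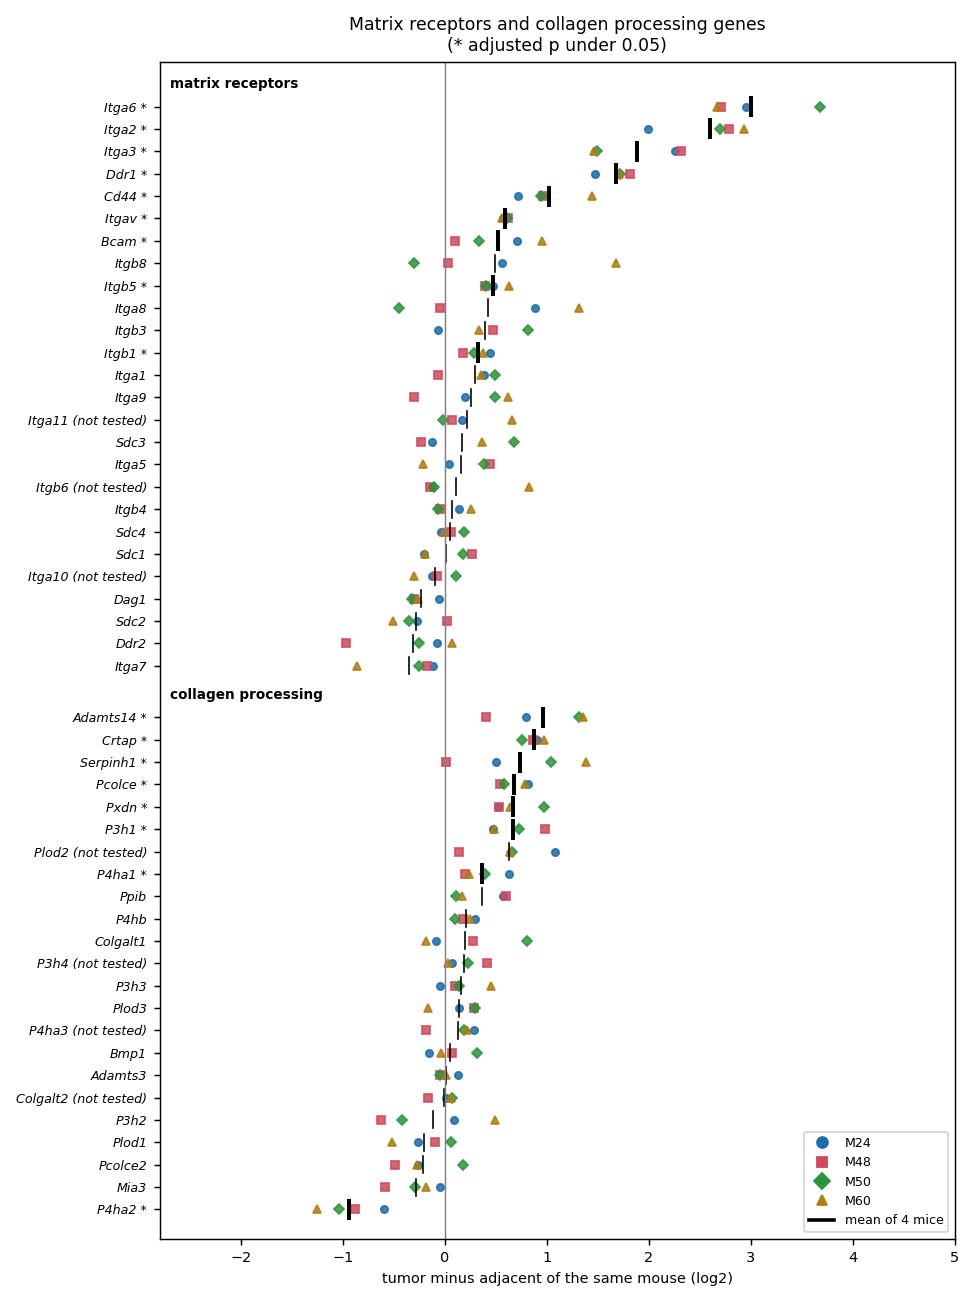
Tumor minus adjacent difference (log2) of matrix receptor and collagen processing genes, with a symbol for each mouse and a bar for the mean (thick and starred where the adjusted p was under 0.05). Itga6, Itga2, Itga3 and Ddr1 head the receptors, and P4ha2 is the only starred gene left of 0.

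Markers of cells that make or border the matrix are given beside these genes, and their part in the differences was not tested. Of 12 tested stellate cell and myofibroblast markers 3 rose (25%) and 0 fell by limma, and 9 did not pass. Over all tested genes 16.3% were called higher and 15.7% lower. At an unadjusted p under 0.05 the counts for these markers were 3 and 1. Without M50, and likewise without M60, 1 rose. The median difference was 0.15, and the mean log2 level over the 14 measured markers was 6.42 to 6.58 in tumors and 5.93 to 6.63 in adjacent liver. Acta2, smooth muscle actin of activated cells, had 6.94, 7.41, 9.77 and 8.03 in tumors, against 5.85, 5.92, 6.04 and 5.51 in adjacent liver. Its difference of 2.21 (SE 0.40, adjusted p = 0.00800) was largest in M50 at 3.73, the mouse with the largest fibrillar collagen differences. Tagln, another contractile gene, rose by 1.07 (adjusted p = 0.0272), a call lost without M50 (adjusted p = 0.0975) and without M60 (0.0956), and Pdgfrb of pericytes rose by 0.58 (adjusted p = 0.0455, lost under several settings, with p up to 0.146 without M24). Hand2, a transcription factor gene of stellate cells, had all tumors below all adjacent samples and stood at -0.23 (adjusted p = 0.106, and 0.0433 after quantile normalization). Hhip, an inhibitor of hedgehog signalling, had 3.55, 3.54, 3.52 and 3.54 in tumors, against 4.37, 4.53, 4.15 and 4.25 in adjacent liver. All its tumors were below all adjacent samples, but both means lay under the filter value and it was not tested. With 20% of genes left out it was called lower (-0.79, adjusted p = 0.00130), as with no filter (0.00149). Lrat stood at -0.37 (adjusted p = 0.126) and Des at -0.18 (adjusted p = 0.238). Reln and Pdgfra were higher in the tumors of M24 and M60 and lower in those of M48 and M50, the same mice as for Dcn and Lum. Reln differences were 0.99, -0.54, -0.75 and 1.23, and those of Pdgfra 0.34, -1.18, -1.44 and 0.64.

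Endothelial markers rose in 7 of 14 tested genes (50%) and fell in 0 by limma (9 and 0 at an unadjusted p under 0.05). Over all tested genes 16.3% were called higher and 15.7% lower. The mean log2 level of the endothelial markers was 7.49 to 7.93 in tumors and 6.88 to 7.13 in adjacent liver, without overlap. Emcn, a sialomucin of venous and capillary endothelium, rose by 1.46 (adjusted p = 0.00146) and the receptor genes Tie1 by 0.81 (adjusted p = 0.00324) and Kdr by 0.64 (adjusted p = 0.00513). Of 4 markers of liver sinusoids, Lyve1 rose by 1.49 (adjusted p = 0.00727) and Stab1 by 0.60 (adjusted p = 0.00714), while Stab2 stood at 0.29 (adjusted p = 0.102) and Clec4g at -0.10 (adjusted p = 0.571). Of 5 tested genes on the portal fibroblast list 2 rose and 0 fell (2 and 0 unadjusted), and 3 were not tested for low values. Entpd2 rose by 1.36 (adjusted p = 0.00183). Cd34, which is not particular to these cells, rose by 1.57 (adjusted p = 0.0123, and 0.0506 without M50). Among the others tested, Thy1 stood at 0.34 (adjusted p = 0.169), Eln at 0.03 (adjusted p = 0.874) and Msln at -0.28 (adjusted p = 0.298). The portal fibroblast list averaged 5.20 to 5.35 in tumors and 4.75 to 5.06 in adjacent liver. Of 5 tested bile duct markers 2 rose and 0 fell (3 and 0 unadjusted), Sox9 by 1.36 (adjusted p = 0.00106) and Krt19 by 0.85 (adjusted p = 0.0372, lost without M24 at 0.136, without M60 at 0.120 and with no replicate block at 0.0784), and the list averaged 4.80 to 5.78 in tumors and 4.64 to 4.78 in adjacent liver.

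Of 11 tested macrophage markers 3 rose (27.3%) and 3 fell, where 16.3% of all tested genes were called higher and 15.7% lower. Ccr2 of infiltrating monocytes rose by 0.99 (adjusted p = 0.00615), and Timd4 and Marco of resident Kupffer cells fell by 0.94 (adjusted p = 0.00644) and 1.29 (adjusted p = 0.0103). Other Kupffer cell markers on the list were mixed. Clec4f fell by 0.65 (adjusted p = 0.0225), while Vsig4 stood at -0.20 (adjusted p = 0.426) and Cd5l at 0.15 (adjusted p = 0.621). With no replicate block Ccr2, Timd4 and Marco did not pass (adjusted p = 0.144, 0.262 and 0.151), and 1 marker rose and 0 fell. Without M48, and likewise without M60, 1 rose. The list averaged 6.87 to 8.37 in tumors and 6.56 to 8.40 in adjacent liver. Hepatocyte markers checked the labelled tissue and were high in all 8 samples, averaging 13.40 to 13.55 in tumors and 13.40 to 13.49 in adjacent liver. Of 7 tested 1 rose (14.3%) and 0 fell by limma (1 and 0 unadjusted), Apoa1 at 0.32 (adjusted p = 0.0387, and up to 0.131 when a mouse was left out).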

How the data were processed

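Expression was measured on 1 Affymetrix mouse gene array per sample, from 0.2 ug of total RNA. The authors deposited log2 values for 28874 probes on 8 arrays. The log base was taken from their range, 1.92 to 14.49. The array medians, 4.89 to 5.01, were nearly equal, and no further scaling was applied. The submitters' processing notes name MAS5 without version or role; the sources used here give no other steps, detection calls or scan batches. The number of arrays limits the precision.

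Gene names came from the platform annotation, in which 21789 probes had 1 symbol. For genes with several probes the brightest by mean was kept. Tumor and adjacent liver were compared with limma 3.58.1 in R 4.3.3 (lmFit, eBayes with trend, mouse as block, two-sided). The labels give tissue and mouse, and the design text states that both tissues came from each animal. Deviations from group means correlated at 0.313, 0.421, 0.0986 and 0.111 within M24, M48, M50 and M60. Between different mice they ran from -0.378 to 0.189, so the values within M50 and M60 lay inside that range. The fit was tested on simulated data. Members, lists, roles and naming rule (all members; of other lists up to 4 genes with the smallest p) were chosen with earlier results of these data known. Itga1, Itga7, Itgb1, Itgb4, Ddr2, Sdc2, Dag1, P4ha1, Adamts14, Hhip, Lrat, Des, Reln, Pdgfra, Eln, Lyve1, Stab2, Clec4g, Krt7, Clec4f, Vsig4 and Cd5l were named after their values were seen. Alternatives changed filter, block, scaling, trend, probe choice and mice.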

Additional observations from a re-analysis of the deposited data

Results flagged for a closer look

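In groups of 4 samples, a highest or lowest value was picked out where its gap to the nearest other sample, as a share of the group's range, passed Dixon's critical value for 4 samples. Of 82 groups (41 genes in 2 tissues) 9 had such a sample, and chance flags about 1 in 20 groups.

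Of these, 4 were M50 tumors. Col1a2 reached 9.35 in this tumor (other tumors 8.26 to 8.35), and Col3a1 at 9.64, against 8.78 to 8.84. Tnc was at 6.26, against 4.57 to 4.79, and Fn1 was low at 12.58, against 12.72 to 12.73. In M24, the tumor was high for Col18a1 at 9.47 (others 9.10 to 9.14) and low for Lama5 at 6.45 (others 6.86 to 6.92), and the adjacent liver was low for Lama4 at 5.03 (others 5.38 to 5.44). The M48 adjacent liver was high for Lamb2 at 6.13 (others 5.72 to 5.77). The M60 adjacent liver was high for Lox at 3.58 (others 3.46 to 3.48), a difference within values below the filter. Without M50, Col1a2 and Col3a1 were still called higher in tumors. Causes were not tested.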

How the results depend on the processing

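Of 21 members called, 13 were called under all 12 alternatives run, among them Nid1, Col3a1, Col1a1, Col4a1, Col4a2, Lama4, Lama5, Lamc1 and Sparc, and 0 called members changed direction. Leaving out each mouse in turn gave 13 to 21 members higher and 0 to 2 lower, 7 to 11 basement membrane genes higher, 1246 to 1754 genes higher and 1070 to 1722 lower over all genes, fewer samples being fitted. It gave 0 to 1 receptors lower, and a fibrillar minus basement membrane gap of 0.40 to 0.63. With no replicate block 20 members rose and 2 fell (1743 and 1799 over all genes), so the block changed the call of Lama2 alone among the members, and 1 receptor was lower, as after subtracting each array's median (1). Medians over genes, an alternative chosen after seeing the data like the one without Nid1, gave a gap of 1.01 in place of 0.54, and the cause was not tested. Among 41 members quantile normalization changed 2 calls and median subtraction 1. Over all genes median subtraction gave 1673 higher and 2155 lower, in place of 1945 and 1874. Members near the filter value of 4.60 (Tnc, Col4a5, Lama3), and Lox well below it (means 3.98 in tumors, 3.50 in adjacent liver), have uncertain sizes.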
